A study of Homo sapiens with 6 samples.

Results

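The 39 genes described here encode the machinery that cuts peptides, carries and loads them, and shows peptides, lipids, vitamin metabolites or stress ligands at the cell surface to T cells and natural killer cells. They were taken from a list of class I, class II, CD1 and related genes, and every probe set whose platform annotation includes one of them was used, alone or with other genes. This gave 104 probe sets of the 54613 tested, for 39 genes. Shares of all genes are taken over the 19775 genes that at least 1 probe set names alone. PSME2, which shares its only probe set with another gene, is not among these. RNA was measured on 6 Affymetrix arrays of MDA-MB-436, an established line of human breast cancer cells, grown in RPMI-1640 medium with serum and insulin. Of these, 3 arrays carry RNA of cells labelled NF1-C2S transfected and 3 carry RNA of cells labelled wild type. The series record describes the transfection as stable and writes the plasmid's insert as NF1-C2, an isoform of nuclear factor I-C, a transcription factor. No line with an empty plasmid is listed, and whether 1 clone or a pool of transfected cells was profiled is not stated in the labels, so the insert, the transfection and a clone's own state cannot be told apart. The labels also do not state whether replicates were separate cultures. All p-values therefore describe only the spread among these arrays, which may be technical.

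In class I presentation, the proteasome cuts cytosolic proteins into peptides, the TAP transporter moves them into the endoplasmic reticulum, aminopeptidases there trim them, and tapasin loads them on a heavy chain paired with beta-2 microglobulin. Interferon gamma is known to replace the catalytic proteasome subunits with immunoproteasome subunits, and many epithelial tumours lose parts of this pathway. Class II molecules are made mainly by professional antigen-presenting cells under the transactivator CIITA, acquire peptides in endosomes after cathepsin S has cut the invariant chain, and are often low or absent in breast tumour cells.

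Expression is given as the deposited log2 value from RMA, on which a difference of 1 is a doubling, and each difference is NF1-C2S transfected minus wild type. Probe sets averaged 4.83 at the median of all, and values under that level lie at the dim end of the scale, where RMA compresses differences. Arrays of the same group correlated at 0.992 to 0.997 within the transfected cells and at 0.996 within the wild type cells, against 0.971 to 0.976 between groups. NFIC, the gene of the factor in the label, was not called on any of its 4 probe sets, whose differences lay between -0.51 and 0.22. Its paralog NFIX read 11.53 ± 0.21 in transfected and 4.79 ± 0.38 in wild type cells (SD, n = 3 each) on 1 probe set, and was lower in transfected cells on 2 of its other probe sets, so directions rest on the labels. Of the epithelial markers, KRT18 was bright and fell by 0.93 (11.62 ± 0.07 in transfected and 12.55 ± 0.11 in wild type cells, adjusted p = 0.000209). KRT8 did not pass (6.64 ± 0.13 and 6.59 ± 0.19, difference 0.05, adjusted p = 0.85). EPCAM was low (4.96 ± 0.44 and 5.71 ± 0.36) and CDH1 lay near background (3.44 ± 0.07 and 3.42 ± 0.02). Both mesenchymal markers listed also fell, VIM by 0.52 (13.01 ± 0.05 in transfected and 13.54 ± 0.01 in wild type cells, adjusted p = 0.00132) and FN1 by 2.77 (7.44 ± 0.13 and 10.21 ± 0.18, adjusted p = 5.84e-06). The part of these shifts in the results below was not tested.

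Among 15 leukocyte, B cell, T cell, macrophage and dendritic cell markers, 9 to 11 per array were under the median of all probe sets in transfected cells and 9 in wild type cells. The defining leukocyte gene PTPRC was near background, at 3.86 ± 0.23 in transfected and 3.65 ± 0.15 in wild type cells. The log2 of the markers' summed level spanned 8.69 to 8.83 in transfected and 8.74 to 8.80 in wild type arrays. CD14 was higher (0.82, adjusted p = 0.0115) and ITGAM lower (-1.21, adjusted p = 0.00617) in transfected cells, and the other 13 did not pass. The other ITGAM probe set, of similar brightness, differed by -0.11 with overlapping groups (adjusted p = 0.739). In a population of cells, a change in the share of cells that express a gene and a change in RNA per cell cannot be told apart.

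A gene was read from its brightest probe set that names it alone, or with other genes where there was none, and was called when limma's p-value, adjusted over all 54613 probe sets, was under 0.05. By this measure 12 of the 39 genes rose in transfected cells, 4 fell and 23 did not pass, which is 41.0% called against 29.0% of all genes. The share that rose was 30.8%, against 13.6% of all genes, and the share that fell was 10.3%, against 15.4%. The members' median difference was 0.12, against 0.00 over all genes. Of the immunoproteasome genes all 5 rose, and of the ligands of the NKG2D receptor 3 of 4 rose, whereas 1 of 6 class I chain genes and 1 of 6 genes of peptide transport, editing and trimming rose. Class II genes were largely dim and mostly did not pass.

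**Figure D1:**
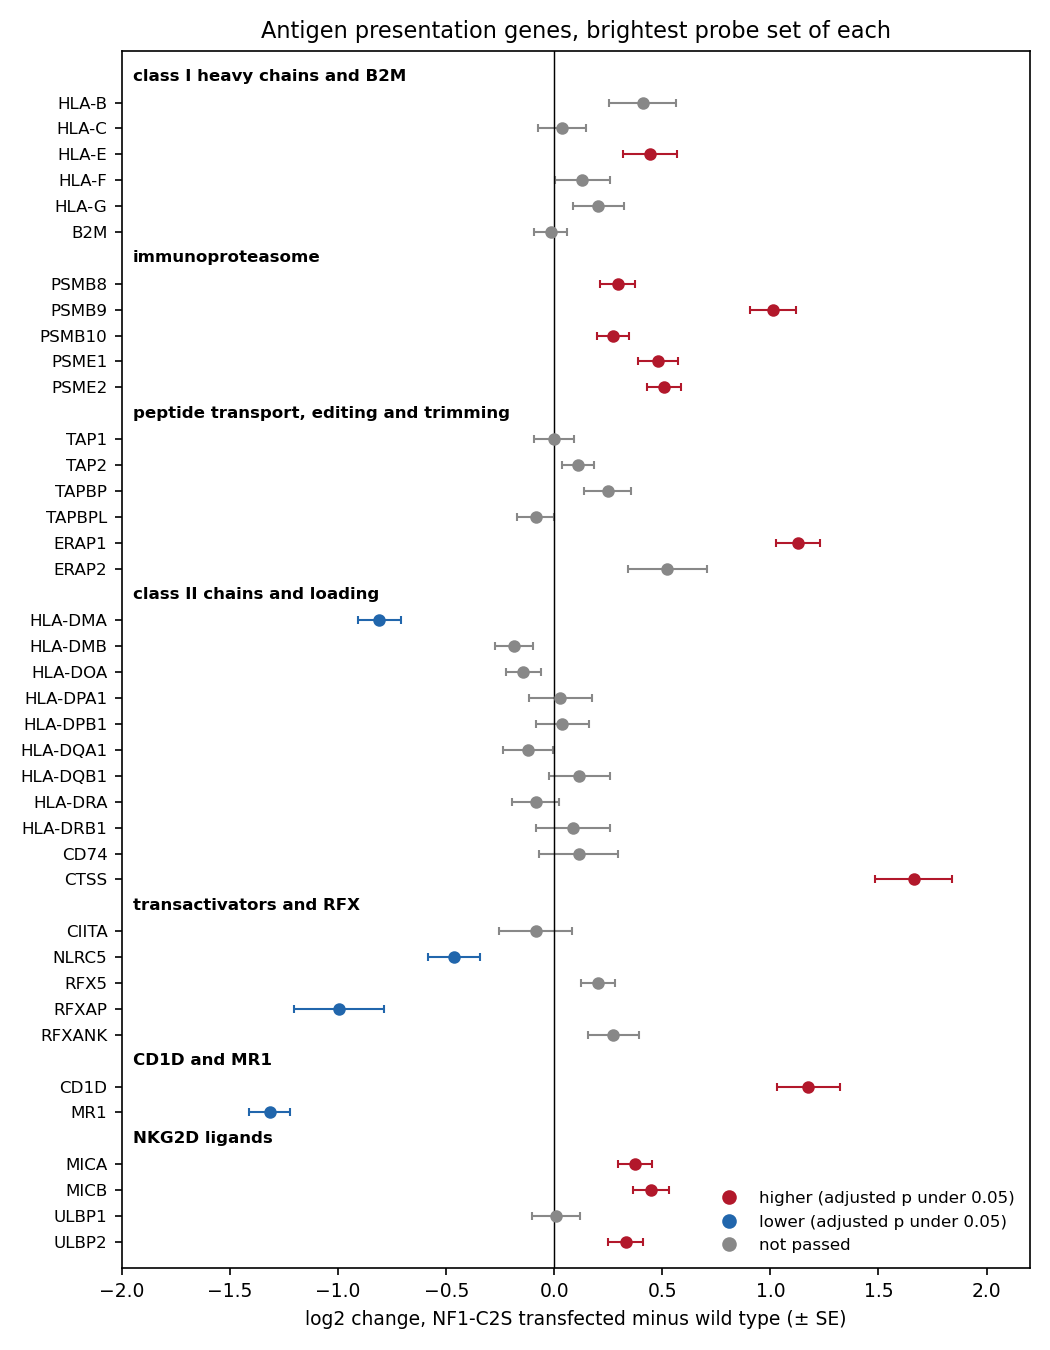
Log2 difference of each of the 39 genes (x axis, NF1-C2S transfected minus wild type, with the standard error as a bar) by role (rows), from its brightest probe set. All 5 immunoproteasome genes lie right of 0, MR1 at -1.32 and CTSS at 1.66 lie at the 2 ends, and the class II chains except HLA-DMA lie between -0.19 and 0.12.

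Counted over probe sets, 17 of 104 were higher, 7 lower and 80 not called. That is 23.1% called, against 22.2% of all probe sets, so on this count the members did not stand out. Most called probe sets were bright ones. Of the 60 member probe sets above the median of all, 21 were called (background 38.9%), and of the 44 at or below it, 3 were called (background 5.61%). The 2 groups of arrays did not overlap in 20 of the 39 genes, or 51.3%, against 43.0% of all genes. Over probe sets, 34 of 104 did not overlap, or 32.7%, against 34.9% of all probe sets.

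**Figure D2:**
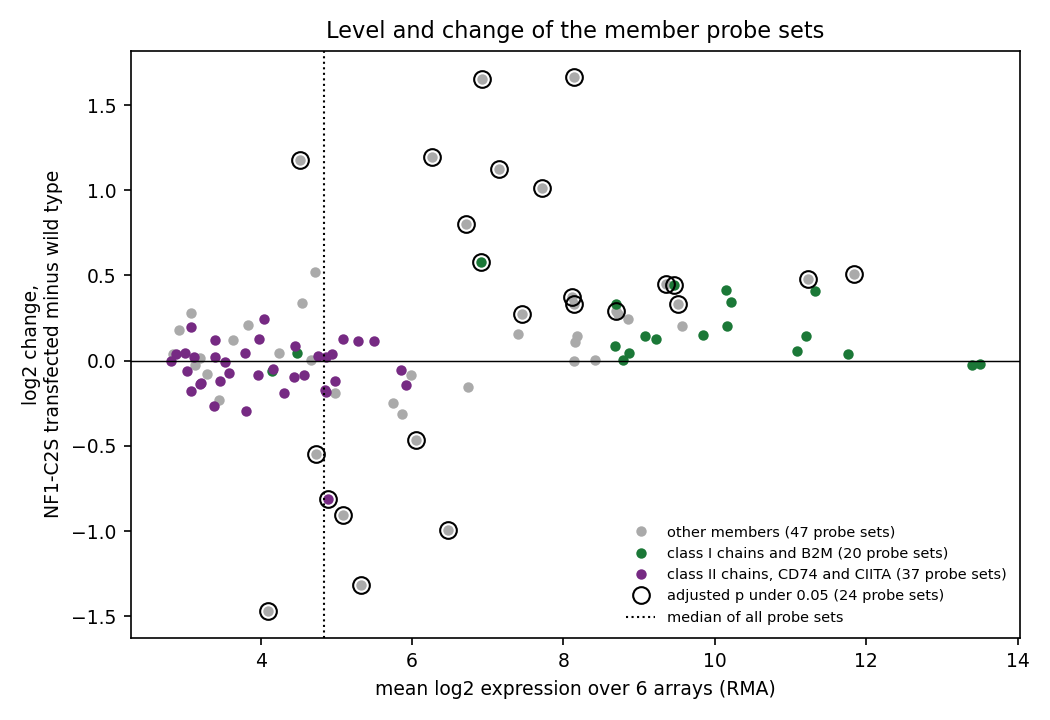
Mean log2 level over the 6 arrays (x axis) against the log2 difference (y axis, NF1-C2S transfected minus wild type) of the 104 member probe sets, with called probe sets ringed. Of the 37 probe sets of class II chains, CD74 and CIITA, 1 is ringed, and 21 of the 24 ringed ones lie above the median of all probe sets (dotted line).

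The immunoproteasome rose as a whole. PSMB9, which replaces the constitutive subunit PSMB6, had the largest of these changes. It read 8.19, 8.16 and 8.32 in transfected cells, against 7.13, 7.09 and 7.41 in wild type cells. The lowest transfected array stood well above the highest wild type array, a difference of 1.01 (SE 0.11, adjusted p = 0.000348) or 2.02-fold. The 2 subunits of the PA28 activator, which opens the proteasome's gate, came next. PSME1 read 11.48, 11.49 and 11.44 in transfected cells and 10.84 to 11.13 in wild type cells (difference 0.48, SE 0.09, adjusted p = 0.00707). PSME2 read 12.09, 12.07 and 12.11 in transfected cells and 11.56, 11.50 and 11.68 in wild type cells (difference 0.51, SE 0.08, adjusted p = 0.0026), on a probe set that also names the microRNA gene MIR7703. In both genes the transfected arrays lay within 0.05 of each other and above every wild type array.

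The remaining catalytic subunits rose less. PSMB8, which replaces PSMB5, read 8.86, 8.79 and 8.87 in transfected cells, against 8.55, 8.45 and 8.64 in wild type cells (difference 0.29, SE 0.08, adjusted p = 0.0365). PSMB10, which replaces PSMB7, read 7.65, 7.55 and 7.58 in transfected cells, against 7.32, 7.36 and 7.29 in wild type cells (difference 0.27, SE 0.07, adjusted p = 0.0335). Neither gene's groups overlapped, but both calls could be lost when a single array was left out. The PSMB10 call was lost whichever array was left out (differences 0.24 to 0.29, adjusted p = 0.0685 to 0.0981). That of PSMB8 was lost without any 1 array except wild type replicate 3 (0.25 to 0.32, adjusted p = 0.0708 to 0.121).

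The constitutive counterparts gave no call on their brightest probe sets. None of the 6 listed genes passed limma's test after adjustment (1, POMP, had an unadjusted p under 0.05), at differences of -0.08 for PSMB5, 0.06 for PSMB6, 0.06 for PSMB7, -0.10 for the alternative activator PSME3, 0.07 for the activator PSME4 and 0.22 for the assembly factor POMP (adjusted p = 0.0703 to 0.703). A dimmer probe set of PSME4 was higher, at 7.74 ± 0.03 in transfected and 7.20 ± 0.06 in wild type cells (adjusted p = 0.00131). Within each array, the log2 level of an immunoproteasome gene was then set against its counterpart. The difference between groups was 0.95 for PSMB9 less PSMB6, 0.37 for PSMB8 less PSMB5 and 0.21 for PSMB10 less PSMB7. It was 0.58 for PSME1 less PSME3 and 0.61 for PSME2 less PSME3. In each of the 5 pairs the transfected and wild type arrays did not overlap, with an exact two-sided permutation p of 0.1. That is the smallest p that 3 arrays against 3 can give, and it is also 0.1 after adjustment over the 8 pairs compared. In all 5 pairs the separation was fixed in advance by the ranges of the single genes. This p therefore adds nothing to the calls of each gene. For PSMB8 less PSMB5, every transfected array was above every wild type array for PSMB8 and below every one for PSMB5. In the other pairs the gap between groups in the immunoproteasome gene was wider than the counterpart's values could close.

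**Figure D3:**
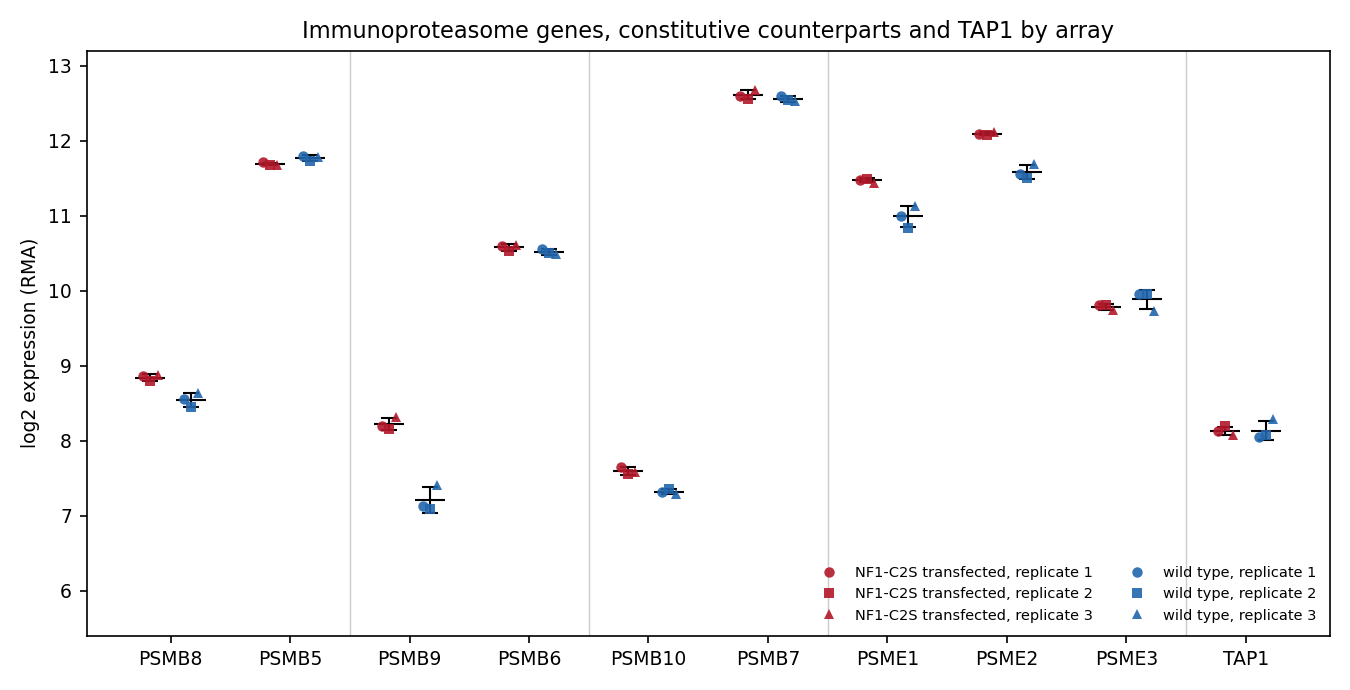
Log2 expression (y axis) of each immunoproteasome gene beside its constitutive counterpart, and of TAP1 (x axis), with a point for each array and lines for the mean and SD of 3. The transfected arrays (left of each pair) stand above the wild type arrays for PSMB8, PSMB9, PSMB10, PSME1 and PSME2, and the groups overlap for PSMB6 and TAP1.

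PSMB9 and TAP1 are read in opposite directions from 1 promoter on chromosome 6, their start sites lying 487 bases apart in RefSeq, and they differed in these cells. TAP1, a subunit of the peptide transporter, read 8.13, 8.19 and 8.08 in transfected cells and 8.05, 8.07 and 8.28 in wild type cells. These ranges overlap fully, with a difference of 0.00 (SE 0.09, adjusted p = 0.995). PSMB9 less TAP1 differed between the groups by 1.01, with no overlap (exact permutation p = 0.1). That separation was fixed in advance, since the gap between groups in PSMB9 was wider than the TAP1 values could close. This p therefore adds nothing to the PSMB9 call. The promoter windows of both genes, and of other class I pathway genes that rose or did not pass, are shown because a motif of interferon-induced genes lay in windows of both kinds and was absent from the PSMB9 window. Each runs from 250 bases before to 50 after a RefSeq start site (assembly GRCh38.p14), on the gene's strand. Capitals mark interferon-stimulated response elements, searched on both strands as GAAA, any 2 bases and GAAA. PSMB9 lies at chr6:32853942-32854241 (+), TAP1 at chr6:32853655-32853954 (-), PSMB10 at chr16:67936801-67937100 (-), PSME1 at chr14:24135944-24136243 (+), PSME2 at chr14:24146561-24146860 (-) and B2M at chr15:44711267-44711566 (+).
PSMB9: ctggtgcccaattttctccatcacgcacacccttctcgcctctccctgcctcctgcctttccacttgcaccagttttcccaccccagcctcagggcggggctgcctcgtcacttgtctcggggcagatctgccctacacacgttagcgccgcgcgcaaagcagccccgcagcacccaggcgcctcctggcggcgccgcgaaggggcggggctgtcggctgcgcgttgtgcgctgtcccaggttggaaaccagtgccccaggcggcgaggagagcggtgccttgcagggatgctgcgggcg
TAP1: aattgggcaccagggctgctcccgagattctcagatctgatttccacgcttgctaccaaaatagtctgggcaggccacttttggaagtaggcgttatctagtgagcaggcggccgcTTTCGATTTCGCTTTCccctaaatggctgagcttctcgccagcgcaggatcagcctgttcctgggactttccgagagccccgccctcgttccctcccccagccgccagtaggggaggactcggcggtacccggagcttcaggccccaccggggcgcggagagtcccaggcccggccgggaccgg
PSMB10: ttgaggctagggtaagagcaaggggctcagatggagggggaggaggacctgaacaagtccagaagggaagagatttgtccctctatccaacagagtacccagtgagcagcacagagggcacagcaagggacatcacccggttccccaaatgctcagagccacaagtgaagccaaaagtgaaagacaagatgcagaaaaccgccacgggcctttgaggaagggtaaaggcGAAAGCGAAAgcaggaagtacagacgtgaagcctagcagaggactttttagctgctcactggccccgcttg
PSME1: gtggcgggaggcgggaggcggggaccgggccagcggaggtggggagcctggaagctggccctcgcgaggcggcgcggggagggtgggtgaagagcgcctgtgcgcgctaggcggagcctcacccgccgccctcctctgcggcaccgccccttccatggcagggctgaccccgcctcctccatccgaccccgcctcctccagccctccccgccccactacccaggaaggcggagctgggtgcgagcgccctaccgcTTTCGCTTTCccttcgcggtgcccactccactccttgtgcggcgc
PSME2: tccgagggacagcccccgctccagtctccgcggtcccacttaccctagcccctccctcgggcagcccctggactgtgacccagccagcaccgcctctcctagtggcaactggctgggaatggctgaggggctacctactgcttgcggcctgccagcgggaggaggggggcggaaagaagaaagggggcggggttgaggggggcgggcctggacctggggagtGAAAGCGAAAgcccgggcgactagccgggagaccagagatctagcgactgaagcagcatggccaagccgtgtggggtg
B2M: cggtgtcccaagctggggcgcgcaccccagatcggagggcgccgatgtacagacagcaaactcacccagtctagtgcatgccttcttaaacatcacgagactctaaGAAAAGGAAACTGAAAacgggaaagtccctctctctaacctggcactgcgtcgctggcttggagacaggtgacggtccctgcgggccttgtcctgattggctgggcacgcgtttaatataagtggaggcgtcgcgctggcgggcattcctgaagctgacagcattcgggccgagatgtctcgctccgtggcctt

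The windows of PSMB10, PSME1 and PSME2, which rose, hold 1 match each (at bases 230 to 239, 256 to 265 and 223 to 232 of the window). Those of TAP1 and B2M, which did not pass, hold 2 overlapping matches each (bases 117 to 132 and 107 to 122). The PSMB9 window, of the gene with the largest rise in the group, holds none. It reaches only 250 bases before the start site, and the TAP1 matches lie beyond it, between the start sites of TAP1 and PSMB9. The absence therefore says nothing on the whole promoter that both genes share. Of the 34 members with a window in the RefSeq table, 12 held the motif in at least 1 window: PSMB8, PSMB10, PSME1, PSME2 and ERAP1, which rose, and HLA-F, B2M, TAP1, TAP2, TAPBP, ERAP2 and RFX5, which did not pass. Over windows, 25% of the 48 member windows held it, against 3.58% of all 35097 windows. A gamma-activated site (TTC, any 3 bases and GAA) lay in windows of 4 members, or 8.33% of member windows against 7.66% of all windows. A kappaB site lay in those of 8 members, or 16.7% of member windows against 5.90% of all. The palindromic site of nuclear factor I lay in none of the 48 member windows and in 0.0285% of all windows, which says only that those letters are not in these windows. Its short form TTGGC lay in 43.8% of member windows and 45.6% of all windows.

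The other transport and editing genes did not pass. TAP2, the partner subunit of TAP1, differed by 0.11 (adjusted p = 0.383), tapasin (TAPBP), which bridges TAP and the heavy chain, by 0.25 (adjusted p = 0.167), and the related peptide editor TAPBPL by -0.09 (adjusted p = 0.591). TAPBP read 9.09, 8.97 and 8.87 in transfected cells and 8.62, 8.65 and 8.92 in wild type cells, so that the groups overlapped through wild type replicate 3. Of the trimming enzymes ERAP1 and ERAP2, only ERAP1 was called. ERAP1 read 7.61, 7.77 and 7.75 in transfected cells, against 6.40, 6.66 and 6.69 in wild type cells. All transfected arrays were higher, by 1.13 (SE 0.10, adjusted p = 0.000174) or 2.18-fold, and a second probe set differed by 0.80 (adjusted p = 0.00086). Both of these end in _s_at, a class that can bind related transcripts, and the other 3 ERAP1 probe sets, which were dim, differed by -0.02 to 0.34 without passing. Read only from probe sets outside that class, ERAP1 differed by 0.34 (adjusted p = 0.213), and as the mean of its 5 probe sets by 0.50 (adjusted p = 0.00164).

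ERAP2, its neighbour on chromosome 5, read 4.62, 4.96 and 5.35 in transfected cells and 4.27, 4.47 and 4.62 in wild type cells, near the median of all probe sets. The groups touched at 4.62, and the difference of 0.52 (SE 0.18, adjusted p = 0.0839) did not pass, but did with the replicate number as a block (adjusted p = 0.00957). Around both genes, 7 of the 20 nearest measured genes outside the list were higher and 2 lower (median 0.16), among them CAST, a calpain inhibitor. Of all genes, 13.6% were higher and 15.4% lower. In the cytosol, 1 of 6 listed peptidases rose and none fell. That gene was tripeptidyl peptidase TPP2 (10.40 ± 0.08 in transfected and 9.79 ± 0.07 in wild type cells, difference 0.61, adjusted p = 0.00124). Its other _s_at probe sets differed by 0.60 and 0.74 (adjusted p = 0.00429 and 0.000613). Its only probe set not ending in _x_at or _s_at was dim, at 3.96 over the arrays. It differed by 0.21 (adjusted p = 0.114 in the fit without those classes). Of 6 chaperones and translocon genes, HSPA5 (0.41, adjusted p = 0.00538) and PDIA3 (0.38, adjusted p = 0.0088) rose and calnexin, CANX, fell by 0.41 (adjusted p = 0.00477). PDIA3 is part of the loading complex, and calnexin holds new heavy chains. As the mean of their probe sets HSPA5 and PDIA3 differed by 0.83 and 0.84, and CANX read -0.22 without the _s_at and _x_at classes (adjusted p = 0.168).

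Class I heavy chains were bright in both groups and differed little, and their values depended on 1 array. On all 17 heavy chain probe sets wild type replicate 3 was above both other wild type arrays, by 0.23 to 0.57 over the mean of those (median 0.38), whereas it was the highest wild type array on 31.8% of all probe sets. On the same 17, transfected replicate 3 was above both other transfected arrays, by 0.09 to 0.44 over the mean of those, and it was the highest transfected array on 31.9% of all probe sets. The labels do not say what the shared replicate number means. Of the 17 probe sets, 15 end in _x_at, so signal of related HLA genes cannot be told apart, and they do not count as 17 separate measurements.

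HLA-E, which shows leader peptides of other class I chains to the natural killer receptor NKG2A, rose. It read 9.58, 9.61 and 9.87 in transfected cells and 9.17, 9.10 and 9.46 in wild type cells, without overlap, a difference of 0.44 (SE 0.12, adjusted p = 0.0378). Its probe set without that suffix read 7.20 ± 0.17 in transfected and 6.62 ± 0.19 in wild type cells (difference 0.58, adjusted p = 0.0124), and the remaining one differed by 0.33 (adjusted p = 0.0733). The call on the brightest probe set was lost without transfected replicate 2 or 3 or wild type replicate 1 or 2 (differences 0.35 to 0.48, adjusted p = 0.0691 to 0.131). Without wild type replicate 3 it was 0.55 (adjusted p = 0.0214).

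HLA-B, a classical chain that presents peptides to CD8 T cells, read 11.49, 11.42 and 11.68 in transfected cells and 10.97, 10.92 and 11.47 in wild type cells. Wild type replicate 3 reached into the transfected range, and the difference of 0.41 (SE 0.15, adjusted p = 0.109) did not pass. Without that array the difference was 0.58 (adjusted p = 0.0125), and with the replicate number as a block 0.41 passed (adjusted p = 0.0213). Without any other 1 array it did not pass (differences 0.31 to 0.465, adjusted p = 0.125 to 0.305). It was smallest without transfected replicate 3 or wild type replicate 1 or 2 (0.31 to 0.335). HLA-C, the other classical chain here, read 11.73, 11.77 and 11.84 in transfected cells and 11.63, 11.62 and 11.98 in wild type cells, with a difference of 0.04 (adjusted p = 0.888). The nonclassical HLA-F and HLA-G differed by 0.13 and 0.20 (adjusted p = 0.586 and 0.315). In all 3 genes wild type replicate 3 lay within or above the transfected range.

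Without wild type replicate 3, every transfected array was above both other wild type arrays on 16 of the 17 probe sets, against 20.7% of all probe sets. The exception was the dimmest HLA-F probe set. Without that array 6 of the 17 were called higher, all of HLA-B or HLA-E, against 8.77% of all probe sets called higher and 18.1% called in either direction. That array was singled out on these same probe sets, as the highest wild type array on all 17, against 31.8% of all probe sets. Transfected replicate 3, the highest transfected array on all 17, was kept. Both counts were thus pushed upward, the shares over all probe sets are not a like baseline, and no conclusion is drawn. Over all 6 arrays 2 of the 17 were called higher, both of HLA-E, against 10.8% of all probe sets. B2M, the light chain shared by all these molecules, was the brightest of the 39 genes at 13.49 ± 0.02 in transfected and 13.51 ± 0.07 in wild type cells, with a difference of -0.02 (adjusted p = 0.928).

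**Figure D4:**
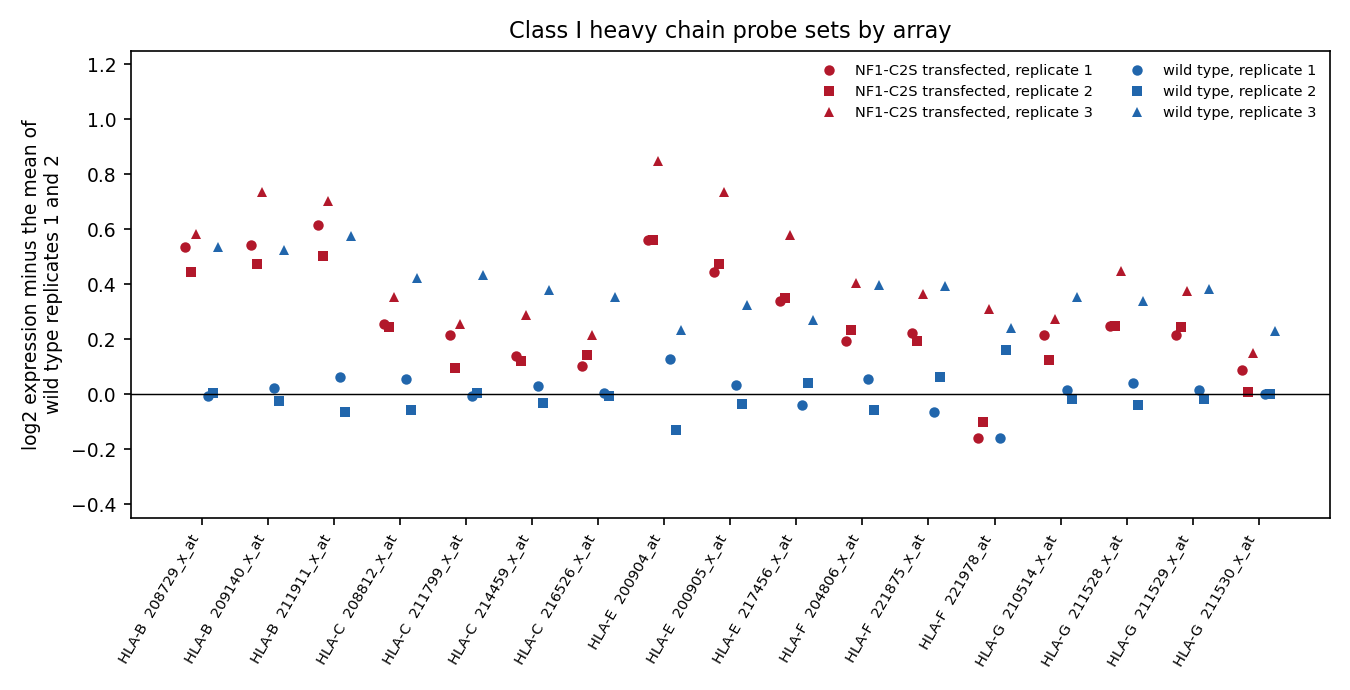
Log2 expression of the 17 class I heavy chain probe sets (x axis) in each array, less the mean of wild type replicates 1 and 2 (y axis). Wild type replicate 3 (blue triangles, right of each pair) lies 0.23 to 0.57 above 0 throughout, above every transfected array for HLA-C, and below every transfected array for HLA-E.

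Of the 4 member genes that encode ligands of NKG2D, an activating receptor of natural killer and T cells, MICA, MICB and ULBP2 rose by under 0.5 each and ULBP1 did not pass. MICA read 8.26, 8.30 and 8.35 in transfected cells and 8.0, 7.95 and 7.85 in wild type cells, a difference of 0.37 (SE 0.08, adjusted p = 0.0111). MICB read 9.53, 9.61 and 9.59 in transfected cells and 9.04, 9.24 and 9.11 in wild type cells (difference 0.45, SE 0.08, adjusted p = 0.00582). Neither gene's groups overlapped, and the probe set that names both differed by 0.33 (adjusted p = 0.0122). ULBP2, a relative anchored by a lipid, read 9.61, 9.77 and 9.66 in transfected cells and 9.29, 9.35 and 9.41 in wild type cells (difference 0.33, SE 0.08, adjusted p = 0.0214). Its groups did not overlap, but its other probe set differed by 0.15 (adjusted p = 0.325), and the call was lost without transfected replicate 2 or 3 or wild type replicate 1 or 2 (adjusted p = 0.055 to 0.0815).

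ULBP1, near the median of all probe sets, averaged 4.66 ± 0.21 in transfected and 4.66 ± 0.01 in wild type cells (adjusted p = 0.981). Of the other NKG2D ligands listed, ULBP3 was dim (difference 0.35, adjusted p = 0.0743) and RAET1E, of the same family, fell by 0.82 (4.35 ± 0.09 in transfected and 5.17 ± 0.10 in wild type cells, adjusted p = 0.000423). RAET1E lies in the cluster of ULBP1 and ULBP2 on chromosome 6, where 4 of the 20 nearest genes outside the list were higher and 5 lower. The shares over all genes were 13.6% higher and 15.4% lower.

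Class II chains were near background in both groups. Of their 31 probe sets, 21 were at or below the median of all, and the brightest averaged 5.92 over the 6 arrays. Of the 9 chain genes 1 was called. HLA-DRA, the alpha chain shared by all DR molecules, averaged 3.92 ± 0.20 in transfected and 4.01 ± 0.03 in wild type cells, and the invariant chain CD74 averaged 5.35 ± 0.27 and 5.23 ± 0.30 (adjusted p = 0.687 and 0.766). HLA-DPA1, HLA-DPB1, HLA-DQA1, HLA-DQB1, HLA-DRB1 and HLA-DOA, whose product restrains HLA-DM, differed by -0.14 to 0.12 without passing. At such levels a difference was hardly measurable, and no statement on these chains can be drawn from the missing calls.

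HLA-DMA, a chain of the DM molecule that exchanges peptides on class II, was the exception. It read 4.41, 4.42 and 4.64 in transfected cells, against 5.21, 5.27 and 5.42 in wild type cells. Every transfected array was under the median of all probe sets and every wild type array above it, a fall of 0.81 on the log2 scale (log2 change -0.81, SE 0.10, adjusted p = 0.000733). HLA-DMB, the partner chain from the neighbouring gene, read 4.65, 4.90 and 4.77 in transfected cells and 4.99, 4.94 and 4.95 in wild type cells, without overlap but at a difference of -0.19 (adjusted p = 0.201). HLA-DMA less HLA-DMB differed between groups by -0.62 (exact permutation p = 0.1). That separation was also fixed in advance, since the gap in HLA-DMA was wider than the HLA-DMB values could close, and this p adds nothing to the HLA-DMA call.

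CTSS, which encodes the protease cathepsin S, had the largest rise of the 39 genes. It read 8.76, 8.77 and 9.40 in transfected cells, against 7.17, 7.30 and 7.47 in wild type cells. All transfected arrays were higher, by 1.66 (SE 0.18, adjusted p = 0.000397) or 3.16-fold. The 1 CTSS probe set outside the _x_at and _s_at classes differed by 1.65 (adjusted p = 4.64e-05), and the third by 1.19 (adjusted p = 0.0335). Of the 20 nearest measured genes on chromosome 1, 8 were higher and none lower (median 0.18), among them CTSK, the neighbouring cathepsin gene. Over all genes 13.6% were higher and 15.4% lower. Whether a shift of this region moved CTSS was not tested. Among 6 other endolysosomal proteases and related genes, CTSH (4.66 ± 0.19 in transfected and 4.09 ± 0.10 in wild type cells, difference 0.57, adjusted p = 0.00848) and the asparaginyl endopeptidase LGMN (8.17 ± 0.03 and 7.63 ± 0.13, difference 0.54, adjusted p = 0.00347) rose, and 4 did not pass on their brightest probe sets. Of these 4, CTSB was called higher on 3 of its 5 probe sets (by 0.44 to 0.55, adjusted p = 0.00289 to 0.0267) and SPPL2A on 2 of its 3 (by 0.61 and 0.71, adjusted p = 0.013 and 0.00317). MARCHF8, a ubiquitin ligase that removes class II and other proteins from the surface, was the only called gene of 3 such ligases (difference 0.56, adjusted p = 0.00843, or 0.33 as the mean of its probe sets).

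**Figure D5:**
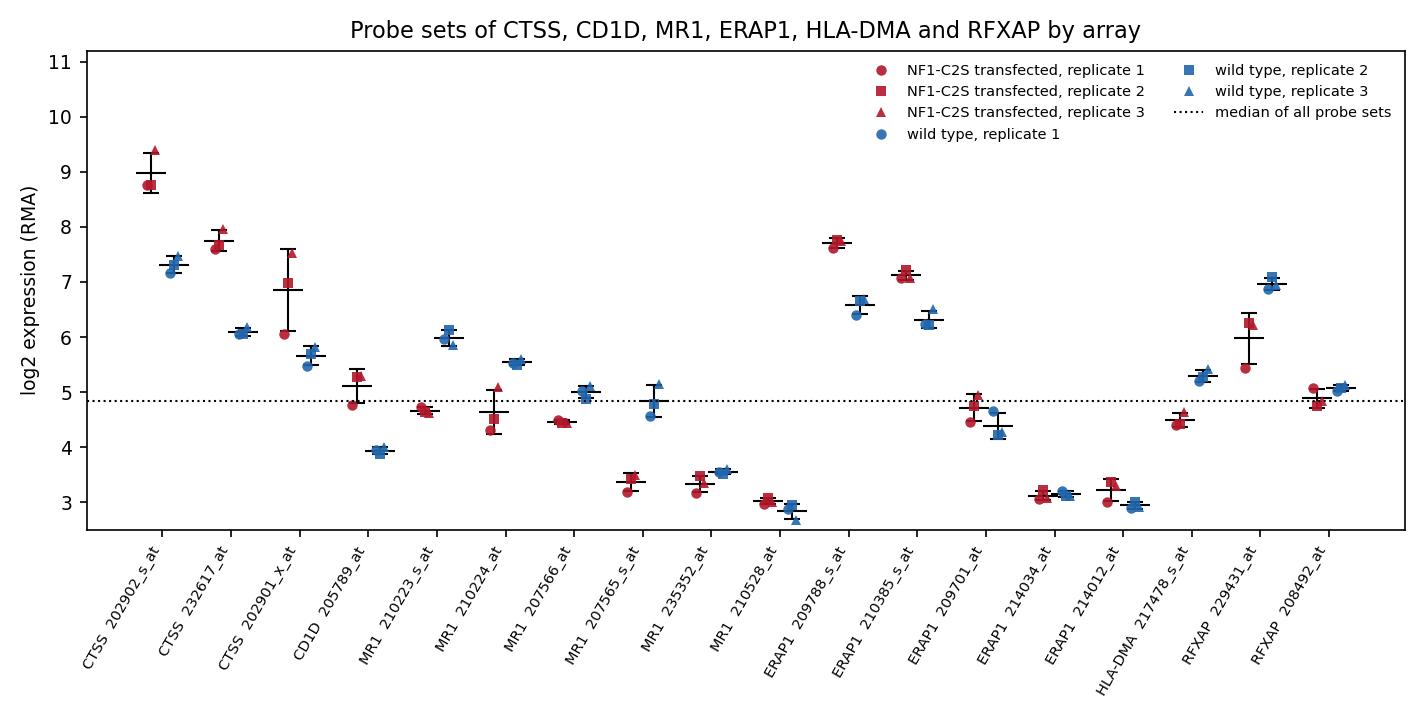
Log2 expression (y axis) of every probe set of CTSS, CD1D, MR1, ERAP1, HLA-DMA and RFXAP (x axis), with a point for each array and lines for the mean and SD of 3. Transfected arrays (left of each pair) are above wild type arrays on all 3 CTSS probe sets and below them on 5 of the 6 MR1 probe sets, and the dotted line is the median of all probe sets.

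Of the regulators that drive class I and class II promoters, 2 of 5 fell and none rose, against 15.4% lower and 13.6% higher over all genes. A list of 5 genes is too short to be set apart from these shares. NLRC5, the class I transactivator, read 5.58, 6.04 and 5.83 in transfected cells and 6.23, 6.25 and 6.36 in wild type cells. The groups did not overlap, at a difference of -0.46 (SE 0.12, adjusted p = 0.0286), but the call was lost without transfected replicate 3 or any 1 wild type array (differences -0.49 to -0.42, adjusted p = 0.0662 to 0.105). RFXAP, a subunit of the RFX complex on the X box of these promoters, read 5.44, 6.26 and 6.22 in transfected cells, against 6.88, 7.09 and 6.94 in wild type cells. Transfected replicate 1 was the lowest and no array overlapped, a difference of -1.0 (SE 0.21, adjusted p = 0.0106). The other RFXAP probe set differed by -0.19 (adjusted p = 0.262), and the mean of both by -0.59 (adjusted p = 0.00147).

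The other RFX subunits went the opposite way without passing. RFX5 differed by 0.20 (adjusted p = 0.12) and RFXANK by 0.27 (adjusted p = 0.16), or 0.39 without wild type replicate 3 (adjusted p = 0.0336). RFXANK lies on chromosome 19 among genes of which 12 of the nearest 20 were lower and 1 higher (median -0.46). Over all genes 15.4% were lower and 13.6% higher. CIITA, the class II transactivator, was dim on all 3 probe sets (brightest 4.53 ± 0.29 in transfected and 4.62 ± 0.23 in wild type cells, adjusted p = 0.814). On their brightest probe sets none of the 4 measured promoter partners, CREB1, NFYA, NFYB and NFYC, passed limma's test (differences -0.23 to 0.16, adjusted p = 0.0579 to 0.896, with 1 unadjusted p under 0.05). Another NFYB probe set was lower (7.30 ± 0.05 in transfected and 7.77 ± 0.15 in wild type cells, adjusted p = 0.00904).

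Of 13 measured interferon signalling genes, 4 rose, 3 fell and 6 did not pass, which is 53.8% called against 29.0% of all genes. All 13 were brighter than the median of all probe sets, and of all such probe sets 38.9% were called. The 3 largest called changes are given here. The JAK inhibitor SOCS1 had the largest difference, at 6.55 ± 0.05 in transfected and 5.41 ± 0.33 in wild type cells (difference 1.14, adjusted p = 0.00121, or 0.42 as the mean of its probe sets). IRF9, the DNA-binding subunit of the factor that type I interferon activates, rose by 0.70 (8.71 ± 0.17 in transfected and 8.01 ± 0.24 in wild type cells, adjusted p = 0.00872). IRF9 also lies among the 20 genes nearest to PSME1 and to PSME2 on chromosome 14. IRF8, a factor best known from myeloid and B cells, fell by 0.71 (6.99 ± 0.09 in transfected and 7.70 ± 0.15 in wild type cells, adjusted p = 0.00146). Over all the listed pathway genes beyond the members, 53 of 59 were measured, of which 10 rose, 5 fell and 38 did not pass. That is 28.3% called, close to the 29.0% of all genes. Of the 38, 6 had another probe set called, lower for IFNAR1 and NFYB and higher for NPEPPS, PSME4, CTSB and SPPL2A.

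The monomorphic presenting molecules CD1D and MR1 went opposite ways. CD1D, which shows lipids to natural killer T cells, has 1 probe set and read 4.76, 5.27 and 5.30 in transfected cells, against 3.94, 3.87 and 3.99 in wild type cells. It was near background in wild type cells and around the median of all probe sets in transfected cells, higher by 1.18 (SE 0.15, adjusted p = 0.000818). The other CD1 genes and lipid-loading genes gave no call (0 of 7 by limma after adjustment, 1 of 7 at an unadjusted p under 0.05, with differences of -0.17 to 0.34). Of these, the saposin precursor PSAP had the largest difference and did not pass (adjusted p = 0.0583).

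MR1, which shows vitamin B metabolites to mucosal-associated invariant T cells, read 4.73, 4.64 and 4.62 in transfected cells, against 5.96, 6.13 and 5.85 in wild type cells. All transfected arrays were under the median of all probe sets and all wild type arrays above it, a difference of -1.32 (SE 0.09, adjusted p = 5.93e-05). It was the largest fall of the 39 genes. Of the 6 MR1 probe sets, 4 fell, by 0.55 to 1.47 on the log2 scale (log2 changes -0.55 to -1.47). The other 2, the dimmest, differed by -0.23 and 0.18 without passing, and the mean over the 6 differed by -0.71 (adjusted p = 0.000187). Both genes lie on chromosome 1. Of the 20 genes nearest to CD1D, 4 were higher and none lower, and of those nearest to MR1, 3 were higher and 1 lower. The shares over all genes were 13.6% higher and 15.4% lower. CD1D less MR1 differed between the groups by 2.49 with no overlap (exact permutation p = 0.1). That separation was fixed in advance, since neither gene's groups overlapped and the genes went opposite ways. This p therefore adds nothing to the calls of each gene.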

How the data were processed

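RNA of 6 MDA-MB-436 samples, 3 labelled NF1-C2S transfected and 3 wild type, was hybridised to 6 one-colour Affymetrix arrays. The authors deposited 1 table of log2 values with a column per array, made with RMA per the submitters' processing notes, in a version they do not state. Precision is limited by the number of arrays. The values were used as deposited. After 62 control probe sets were left out, 54613 were fitted with limma 3.58.1 (R 4.3.3, lmFit and eBayes, two-sided, group only), with Benjamini-Hochberg adjustment over all of these and a threshold of 0.05. The fit was tested on simulated data. Probe sets were named from the platform annotation, and promoter windows came from RefSeq. Members and lists were chosen with earlier results of these data known. All 39 members are described, and of each pathway list its counts and up to 3 called genes with the largest changes. Other genes are named as markers, neighbours or counterparts, chosen after their values were seen where the fixed lists do not hold them. Some listed pathway genes and markers were not analysed here.

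Because groups share replicate numbers in the labels, deviations from the group means were correlated between same-numbered arrays, at 0.398, 0.238 and 0.14 for replicates 1, 2 and 3. All are above 0.1, which counted as pairing, although transfected replicate 3 and wild type replicate 2 gave 0.142. The block changed the call of HLA-B and ERAP2, where its values are given. Alternatives were other normalizations, array weights, another variance prior, the block, filters on dim, shared or _x_at and _s_at probe sets, means of probe sets, and leaving out each array.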

Additional observations from a re-analysis of the deposited data

How the results depend on the processing

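With 3 arrays a group, small differences rested on single arrays, and signals at the dim end limit what class II, CIITA and ERAP2 can show. Over 16 or fewer alternatives per gene, 10 of the 16 called members kept direction and call under each (CD1D, CTSS, HLA-DMA, MICA, MICB, MR1, PSMB9, PSME1, PSME2 and RFXAP), and 19 of the 23 others were called under none. Leaving out each array in turn gave 11 to 16 called member genes (8 to 13 higher, 3 to 4 lower) and 18 to 26 called member probe sets (12 to 20 higher, 6 to 9 lower), against 16 genes and 24 probe sets over all arrays. The same fits called 17.8% to 22.6% of all 54613 probe sets, against 22.2% over all arrays. Without probe sets ending in _x_at and _s_at, 12 member probe sets were called, 8 higher and 4 lower, since 50 of the 104 end so, and 18.3% of all 39114 that remained. The replicate block called 18 genes and 28 probe sets, and 24.7% of all probe sets. It added HLA-B and ERAP2 and changed no other call of the named genes. A variance prior with trend also called HLA-B and RFX5, and array weights ERAP2. Of 811 values for 52 named genes, 736 kept direction and call, 27 lost the call and 11 gained it. A further 36 changed sign with neither value past the threshold, in genes with differences of at most 0.13 in size. The mean of its probe sets turned NFIX to 1.15 from the fall of its brightest one, through the probe set that read 11.53 in transfected cells. The cause of the other changes was not tested.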
